A study of Homo sapiens with 2 samples.

Results

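The transcripts examined here encode the chains of the pre-B-cell receptor and a relative of them: IGLL1 and VPREB1, VPREB3, IGHM, CD79A and CD79B. These 6 genes were chosen by name and function, with earlier results of these data known. They were found by Entrez number (3543, 7441, 29802, 3507, 973 and 974) and are 6 of the 25702 gene features counted in the study. The cells were REH (REH-R in the labels), a line grown from human precursor-B acute lymphoblastic leukaemia, and carried one of 2 tetracycline-regulated cassettes. Their total RNA was sequenced. The PAX5 group expressed PAX5-IRES-GFP, which gives the transcription factor PAX5 and green fluorescent protein from a single transcript, and the control group expressed IRES-GFP without PAX5. Both groups were sorted for GFP after 3 days in doxycycline at 1 µg/mL, and each is represented by 1 library. No difference therefore has a replicate check, no p-value or standard error can be given, and every interval below covers counting error only. The labels do not say whether either line is a single clone.

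The pre-B-cell receptor is the checkpoint complex of the developing B cell. A newly rearranged μ heavy chain, encoded by IGHM, pairs with a surrogate light chain made of λ5 (IGLL1) and VpreB (VPREB1), because no light chain gene has yet been rearranged, and the complex signals through the CD79A and CD79B heterodimer. VPREB3 encodes a VpreB-related protein that associates with μ heavy chains inside the cell and is not part of the surface receptor. PAX5, with EBF1 and E proteins, is a known regulator of genes of this group in B-cell precursors.

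The 2 libraries held 11944765 counts (PAX5) and 10997864 counts (control), and 16420 and 15999 features had at least 1 count. PAX5 itself had 8319 and 2660 counts, a log2 ratio of 1.54 (95% interval 1.48 to 1.60), which matches the labels in direction. These counts include reads of the introduced copy wherever that copy holds sequence of the counted gene. Of the markers of B-cell precursors, 9 of 10 had at least 10 counts, with sums of 97488 and 87957, and CD34 had 1 and 0. MS4A1, CR2 and FCER2 of later B cells had 0 counts in both libraries, HBB of erythroid cells likewise, and the T-cell list summed to 0 and 1. Myeloid markers summed to 792 and 1461 counts, mostly MPO with 554 and 1138, while plasma-cell markers summed to 214 and 82, mostly SDC1 with 194 and 73, and natural killer markers to 27 and 46, all from NKG7. These sums moved between the libraries beside the receptor genes, and their part in the results was not tested.

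The promoters of the receptor genes are shown first, because EBF1, E protein, octamer, ETS and PAX5 motifs are the known inputs of these genes. RefSeq (GRCh38.p14) promoter entries were matched for 4 of the 6 genes, IGLL1, VPREB1, VPREB3 and CD79A, and cover 250 bases before to 50 bases after the start. IGLL1 spans chr22:23580241-23580540 on the minus strand, VPREB1 chr22:22244536-22244835 on the plus strand, VPREB3 chr22:23754376-23754675 on the minus strand and CD79A chr19:41877029-41877328 on the plus strand. Each is written 5′ to 3′ along its gene, with matches to any of the motifs in capitals.
IGLL1: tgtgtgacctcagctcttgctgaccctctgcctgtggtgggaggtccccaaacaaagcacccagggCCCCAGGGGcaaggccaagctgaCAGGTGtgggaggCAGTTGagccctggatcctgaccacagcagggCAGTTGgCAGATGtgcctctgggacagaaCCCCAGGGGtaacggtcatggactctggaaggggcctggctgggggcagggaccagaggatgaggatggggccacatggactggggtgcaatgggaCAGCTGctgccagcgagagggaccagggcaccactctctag
VPREB1: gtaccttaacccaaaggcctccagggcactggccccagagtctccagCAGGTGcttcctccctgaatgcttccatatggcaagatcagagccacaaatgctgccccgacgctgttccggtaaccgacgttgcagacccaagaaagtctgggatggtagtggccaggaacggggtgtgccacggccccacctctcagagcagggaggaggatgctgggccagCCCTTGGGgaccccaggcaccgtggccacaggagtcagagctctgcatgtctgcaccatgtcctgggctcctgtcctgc
VPREB3: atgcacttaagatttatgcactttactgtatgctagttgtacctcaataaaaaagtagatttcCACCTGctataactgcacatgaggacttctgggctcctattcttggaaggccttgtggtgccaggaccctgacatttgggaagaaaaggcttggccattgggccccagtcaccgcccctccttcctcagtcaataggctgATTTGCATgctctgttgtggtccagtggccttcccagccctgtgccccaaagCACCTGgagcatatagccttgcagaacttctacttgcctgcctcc
CD79A: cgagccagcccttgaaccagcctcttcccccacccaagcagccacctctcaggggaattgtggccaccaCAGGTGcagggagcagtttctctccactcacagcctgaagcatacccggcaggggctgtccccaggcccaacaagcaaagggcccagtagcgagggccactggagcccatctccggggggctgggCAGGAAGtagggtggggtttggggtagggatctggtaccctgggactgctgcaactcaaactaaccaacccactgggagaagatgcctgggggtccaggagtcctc
The letters searched, on both strands, were CCCNNGGG for EBF1, CAGNTG for E proteins, ATTTGCAT for the octamer bound by OCT factors, GCGTGAC for the core of a PAX5 site and CAGGAAG for ETS factors. No match of one motif overlapped a match of another in these windows.

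IGLL1 held the most matches. Its EBF1 letters occur at -184 and -87 from the start, each with a second, shifted match overlapping it by all but 1 base, and its E protein letters occur at -161, -148, -116, -109 and 10. VPREB1 held 1 EBF1 match at -29 and 1 E protein match at -203. VPREB3 held no EBF1 match, E protein matches on the opposite strand at -187 and 6, and the octamer at -47. CD79A held an E protein match at -181 and an ETS match at -56. The PAX5 core letters were in none of the 4 windows, which says only that these letters do not occur there. Over all 35116 promoters of the table, 19.1% held the EBF1 letters, 49.9% the E protein letters, 1.77% the octamer, 12.7% the ETS letters and 2.52% the PAX5 core. The E protein letters were present in all 4 windows, and all matches are descriptions of letters, not measured binding sites.

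The surrogate light chain was present in very unequal parts. Levels are given as TPM (transcripts per 1000000), which divides counts by the deposited gene length and so allows genes to be compared, with exact Poisson intervals. IGLL1, the λ5 chain, had 5465 counts and a level of 1275 TPM (1241 to 1309) in the PAX5 library and 6063 counts and 1442 TPM (1406 to 1479) in the control library. It was among the most abundant transcripts of the cells, ranking 83 and 79 of all features by TPM. VPREB1, whose product completes the surrogate light chain, had 17 counts and 5.57 TPM (3.25 to 8.92) in the PAX5 library and 7 counts and 2.34 TPM (0.941 to 4.82) in the control library. It ranked 10369 and 11558. Per length, IGLL1 thus stood 228.7-fold (142 to 368) above VPREB1 in the PAX5 library and 616-fold (294 to 1293) in the control library.

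The IGLL1 ratio of the PAX5 library over the control library was 0.838-fold, a log2 ratio of -0.26 (-0.31 to -0.20), or 1.19-fold lower. The VPREB1 ratio was 2.26-fold (0.890 to 6.44), a log2 ratio of 1.17 (-0.17 to 2.69), so its 24 reads leave the direction unresolved at this depth. The change of VPREB1 relative to IGLL1, which does not depend on how the libraries are scaled, was a log2 value of 1.43 (0.16 to 2.70). VPREB3 had 1847 and 1823 counts and levels of 663.5 TPM (634 to 694) and 667.7 TPM (637 to 699), with a log2 ratio of -0.09 (-0.18 to 0.01). The TPM intervals of the libraries overlapped for VPREB3, while its ratio lay below 0 when scaled by total counts (-0.19 to -0.01) or upper quartile (-0.21 to -0.02). It stood 119-fold (73.9 to 191.9) and 285-fold (136 to 599) above VPREB1 per length, so the 2 VpreB family genes differed widely in level within both libraries.

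**Figure D1:**
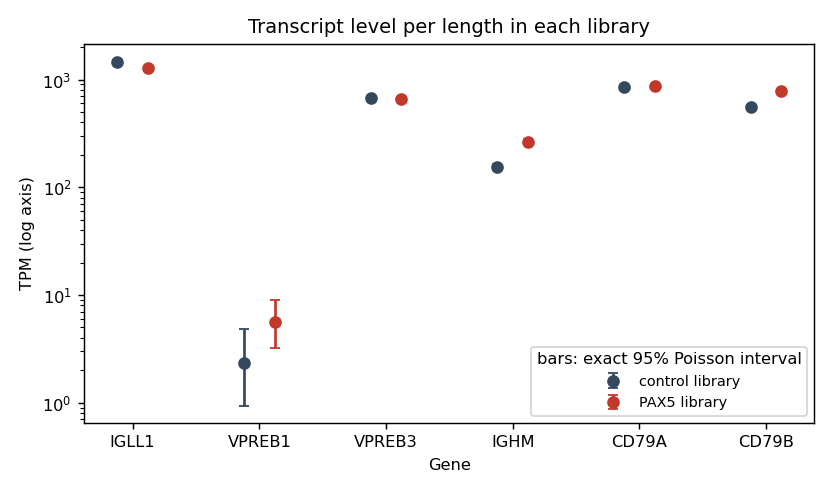
Level of each gene in TPM (log axis) in the PAX5 and the control library, 1 point per library, with exact Poisson 95% intervals of the counts. IGLL1 is highest at 1275 and 1442 TPM and VPREB1 lowest at 5.57 and 2.34 TPM, and for IGHM and CD79B the intervals of the PAX5 library lie above those of the control.

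The heavy chain gene IGHM showed the largest difference among the abundant genes. Its row counts the constant gene and does not tell rearranged heavy chain transcripts from other transcripts of the locus. IGHM, the μ constant gene, had 1877 counts and 265 TPM (254 to 278) in the PAX5 library and 1076 counts and 155 TPM (146 to 165) in the control library. The ratio was 1.62-fold (1.50 to 1.75), a log2 ratio of 0.70 (0.59 to 0.81), and the rank by TPM was 632 against 1227. Among the 5339 features with at least 1000 counts, where counting error is small, that log2 ratio lay at percentile 98.5; the 5th and 95th percentiles of those features were -0.31 and 0.41. In bulk RNA, fewer cells that express a transcript and less transcript per cell cannot be told apart.

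The signalling chains, which couple the receptor to SYK through their cytoplasmic tyrosine motifs, were both abundant. CD79B (Ig-β) had 4723 counts and 785 TPM (763 to 808) with PAX5 and 3278 counts and 556 TPM (537 to 575) in the control. Its ratio was 1.34-fold (1.28 to 1.40), a log2 ratio of 0.42 (0.36 to 0.49) at percentile 95.2. Its partner CD79A (Ig-α) had 5256 and 4950 counts and 878 TPM (854 to 902) and 843 TPM (820 to 867), with a log2 ratio of -0.02 (-0.08 to 0.04). CD79B thus lay higher in the PAX5 library, while the interval of CD79A held 0. The level of CD79B per CD79A was 0.894 (0.860 to 0.930) with PAX5 and 0.659 (0.631 to 0.689) in the control, and the change of CD79B relative to CD79A was a log2 value of 0.44 (0.36 to 0.53).

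None of the 6 genes passed the rule of size, which asks that the interval bound nearest 0 lie at or beyond 2-fold and that both libraries together hold at least 10 counts. Of the 13532 features with at least 10 counts, 182 passed it as higher in the PAX5 library (1.34%) and 7 as lower (0.0517%), and of the 5339 features with at least 1000 counts, 21 passed as higher (0.393%). The interval lay above 0 for 2 of the 6 genes, IGHM and CD79B, against 18.7% of features with at least 10 counts and 28.7% of those with at least 1000. It lay below 0 for 1 gene, IGLL1, against 16.8% and 25.0%. With 3 of 6 intervals off 0, the receptor genes stand near the share among features with at least 1000 counts, but this tally changed on centring by gene length. The median log2 ratio of the 6 genes was 0.20, beside -0.01 over all features with at least 10 counts, and their summed level was 3872 TPM against 3666 TPM.

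**Figure D2:**
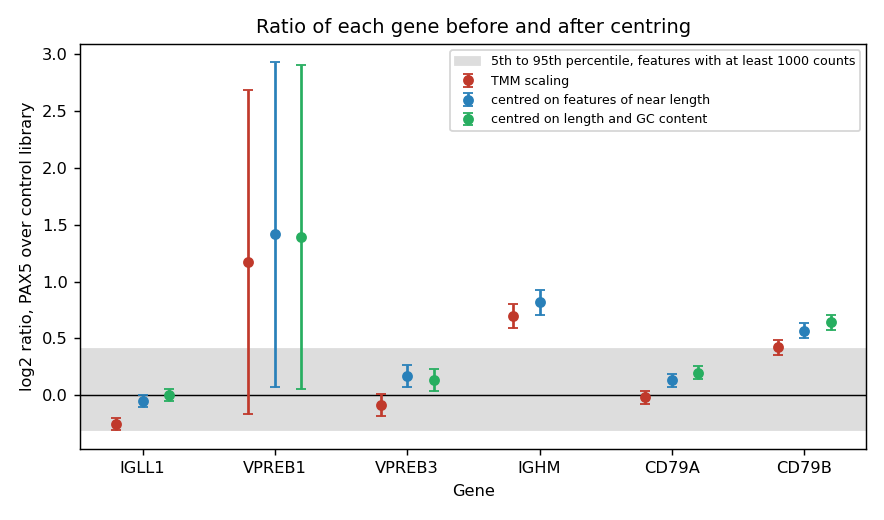
Log2 ratio of the PAX5 over the control library for each gene, with exact 95% counting intervals, as scaled by TMM, centred on features of near length, and centred on length and GC content (no value for IGHM); the grey band spans the 5th to 95th percentiles of features with at least 1000 counts. IGHM (0.70) and CD79B (0.42) lie above 0 in each setting drawn, IGLL1 moves from -0.26 to -0.05 and 0.00, and VPREB1 has the widest interval.

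The ratio of IGHM transcripts to those of IGLL1 and CD79A differed between the libraries. The IGHM level per IGLL1 was 0.208 (0.198 to 0.220) with PAX5 and 0.108 (0.101 to 0.115) in the control, a change of 1.94-fold and a log2 value of 0.95 (0.83 to 1.07). This is a transcript ratio and gives no measure of assembled protein. The IGHM level per CD79A was 0.302 (0.287 to 0.319) and 0.184 (0.172 to 0.197), a change of 1.64-fold and a log2 value of 0.72 (0.59 to 0.84). From highest to lowest TPM, the order was IGLL1, CD79A, CD79B, VPREB3, IGHM and VPREB1 in the PAX5 library, and the same in the control except that VPREB3 stood above CD79B. The Poisson intervals of neighbours in that order did not overlap within either library.

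Gene length moved with the ratios across all genes, and the receptor genes are short. Over 10667 features with at least 100 counts, the log2 ratio and the deposited length had a Spearman rho of 0.451, a description across genes of the same 2 libraries. The median log2 ratio was -0.20 in the shortest of 10 length groups (85 to 1262 bases) and 0.19 in the longest. VPREB3 (585 bases), VPREB1 (641 bases), IGLL1 (901 bases) and CD79A (1258 bases) fall in the shortest group, while CD79B (1264 bases) and IGHM (1486 bases) fall in the next, whose median was -0.12. The cause of the trend was not tested, and it touches every value of these genes.

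Centred on the median of their length group, the 6 genes read differently. IGLL1 went from -0.26 to -0.05 (-0.11 to -0.00) and from percentile 8.04 to 35.6 of the features with at least 1000 counts, so its lower value was about that of other short genes. The interval of CD79A came to lie above 0, at 0.18 (0.13 to 0.24), and so did those of VPREB3, at 0.12 (0.02 to 0.21), and VPREB1, at 1.38 (0.03 to 2.89). IGHM reached 0.82 (0.71 to 0.93) and CD79B 0.54, at percentiles 99.0 and 98.0. Counted this way, 5 of the 6 intervals lay above 0 and 1, that of IGLL1, below. Of features with at least 10 counts, 16.7% lay above and 13.7% below after the same centring, and of those with at least 1000 counts 22.6% and 21.5%. The median of the 6 genes was 0.36 after centring. The edge between the first length groups runs between the near-equal CD79A and CD79B, so each gene was also set against features within 10% of its own length. That gave 0.57 (0.50 to 0.63) for CD79B, 0.13 (0.08 to 0.19) for CD79A, 0.17 (0.08 to 0.27) for VPREB3 and 1.42 (0.08 to 2.93) for VPREB1. The gap between CD79B and CD79A was 0.44 before and 0.36 after centring on length group. That drop is the step between the medians of the 2 groups, not a difference in length between the genes.

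**Figure D3:**
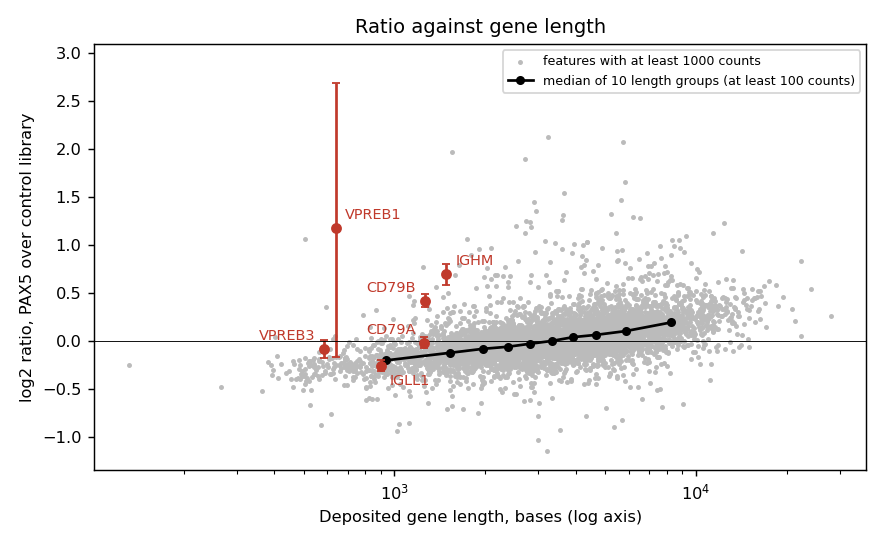
Log2 ratio of the PAX5 over the control library against the deposited gene length in bases (log axis); grey points are the features with at least 1000 counts, the line joins the medians of 10 length groups, and the named points are the receptor genes with 95% counting intervals. The line runs from -0.20 to 0.19; against the median of its length group, IGLL1 lies just below, CD79A and VPREB3 slightly above, and IGHM, CD79B and VPREB1, the last with a wide interval, further above.

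Shared sequence limits what the counts of some chains mean. Of the 50-base stretches of its longest GENCODE v29 transcript, IGLL1 had 78 of 852 (9.16%) also in another gene, among them the related pseudogene IGLL3P. CD79B had 193 of 1220 (15.8%), in a transcript model annotated over the same locus that reaches the growth hormone gene GH1. VPREB1, VPREB3, IGHM and CD79A had 0 of 706, 561, 1637 and 1209. Reads within shared stretches may have been lost or exchanged in counting, and the strand setting was not given in the sources used here.

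Few reads were counted to light chain genes beside these chains. These rows do not tell rearranged from germline transcripts. Sequence shared between light chain genes was not measured, and how shared reads were counted was not given, so counts of 0 may miss some reads. All 50 kappa rows together held 3 counts with PAX5 and 0 in the control, and the constant gene IGKC had 0 in both. The 47 V, J and C rows of the lambda locus held 88 and 36 counts, 2.27-fold (1.53 to 3.45), or 7.40 and 3.26 CPM (counts per 1000000). Of them IGLC7 had 28 and 8 counts, IGLV2-14 had 21 and 4, IGLV4-69 had 28 and 12, and IGLV4-3 had 4 and 7. All light chain rows together thus held fewer counts than IGLL1 alone in both libraries.

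The rest of the heavy chain locus gave few reads outside IGHM and IGHD. IGHD, the δ constant gene that is spliced from the same primary transcript as IGHM, had 946 and 755 counts, a log2 ratio of 0.22 (0.08 to 0.36). IGHM per IGHD was 1.54 (1.43 to 1.67) in the PAX5 library and 1.11 (1.01 to 1.22) in the control library, a log2 change of 0.48 (0.30 to 0.65), a pair that was added after the values were seen. The 43 variable segment rows of the heavy chain held 92 and 68 counts, a log2 ratio of 0.33 (-0.14 to 0.80), and the 27 diversity segment rows held 0. Diversity segments are only 11 to 37 bases long, so their 0 counts do not show whether they were transcribed. Single segments with at least 10 counts were IGHV1-69 with 11 and 1 counts, IGHV3-43 with 23 and 9, IGHV4-28 with 9 and 4, IGHV3-15 with 21 and 26, IGHV4-39 with 13 and 18, and IGHJ6 with 15 and 8. Sequence shared between variable segments was not measured, and how shared reads were counted was not given in the sources used here, so single values are uncertain. IGHG3 had 41 and 12 counts, and JCHAIN, which joins secreted IgM and IgA, had 56 and 54. IGLL3P, the λ5-like pseudogene, had 168 and 237 counts, a log2 ratio of -0.60 (-0.90 to -0.31), in the direction of IGLL1. IGLL5 had 3 and 4 counts. Over all 184 other immunoglobulin rows, 147 had 0 counts in both libraries and 14 had at least 10; none of the 14 passed the rule of size, 7 intervals lay above 0 and 1 below, beside 18.7% and 16.8% of features with at least 10 counts, and the median was 0.93.

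Downstream of the receptor, the signalling list held 38 genes, all with at least 10 counts. None passed the rule of size, and 16 intervals lay above 0 and 8 below. Of features with at least 10 counts, 18.7% lay above and 16.8% below, and of those with at least 1000, 28.7% and 25.0%. The median log2 ratio was 0.07, or 0.02 after centring on length, beside -0.01 over all features. The interval counts of all gene lists beside the receptor genes are before that centring. PRKCB, a protein kinase C of B-cell receptor signalling, had 6590 and 4080 counts, a log2 ratio of 0.59 (0.53 to 0.64), and the adaptor PAG1, which brings CSK to the membrane, had 0.48 (0.43 to 0.53). Among the lower values, the SRC-family kinase BLK had 270 and 364 counts, a log2 ratio of -0.54 (-0.77 to -0.31). The kinase BTK had -0.25 (-0.35 to -0.15) and the linker BLNK -0.23 (-0.32 to -0.15). SYK, the kinase that binds the CD79 chains, had -0.02.

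A list of transcription factors set beside the surrogate light chain and CD79 genes had 17 of 18 members with at least 10 counts. Whether each member acts on these genes was not tested. Only SPIB, an ETS factor of B cells, passed the rule, with 122 and 35 counts, 3.24-fold and a log2 ratio of 1.70 (1.14 to 2.28). Of the 17 intervals 10 lay above 0 and 3 below, beside 18.7% and 16.8% of features with at least 10 counts and 28.7% and 25.0% of those with at least 1000. The median was 0.08, or 0.02 after centring on length. The interval counts are before centring, which lowered TCF3 from 0.08 to 0.01 and EBF1 from 0.01 to -0.10 and raised SPI1 from -0.23 to -0.11. IRF8 had 393 and 178 counts, a log2 ratio of 1.04 (0.78 to 1.30), and IRF4, which limits surrogate light chain expression in pre-B cells together with IRF8, had 119 and 53, at 1.06 (0.58 to 1.56). EBF1 had 7945 and 7354 counts and a log2 ratio of 0.01. IKZF1 (Ikaros), which represses IGLL1 in pre-B cells, had 5995 and 7075 counts, a log2 ratio of -0.35 (-0.40 to -0.30), MYC had -0.38 (-0.45 to -0.30) and the ETS factor SPI1 -0.23 (-0.36 to -0.10). IKZF3 had 5 and 1 counts, below the minimum.

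Chaperones and folding enzymes that assemble immunoglobulin chains in the endoplasmic reticulum, with LGALS1 added, made up the third list, of 17 genes. None passed the rule, 1 interval lay above 0 and 5 below, that of LGALS1 among them, and the median was -0.07. The count below 0 is near the 25.0% of features with at least 1000 counts and above the 16.8% of those with at least 10. Above 0 the shares of those features were 28.7% and 18.7%, and the list lay under both. The interval above 0 was that of DNAJC3, at 0.16 (0.01 to 0.32). LGALS1, whose product galectin-1 is a ligand of the pre-B-cell receptor, had 921 and 1105 counts, a log2 ratio of -0.37 (-0.50 to -0.24). PPIB had -0.30 (-0.45 to -0.15), SDF2L1 -0.51 (-0.89 to -0.14), and HSPA5, the BiP chaperone that holds unpaired heavy chains, -0.04.

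**Figure D4:**
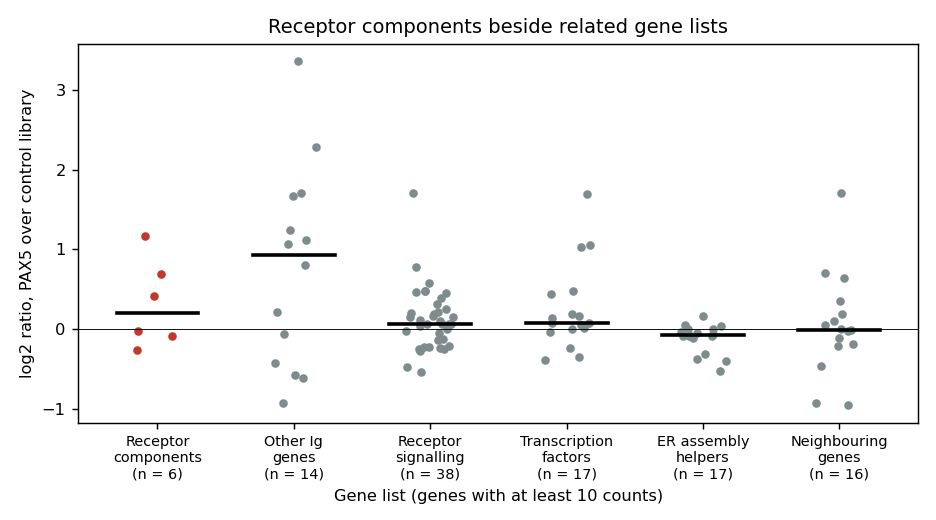
Log2 ratio of the PAX5 over the control library for each gene with at least 10 counts 1 point per gene, with bars at the list medians. From left to right the medians are 0.20 for the receptor genes and 0.93 for the other immunoglobulin genes, which mostly have few counts. The next are 0.07 for signalling, 0.08 for transcription factors, -0.07 for endoplasmic reticulum helpers with LGALS1 and -0.00 for neighbouring genes.

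Of 16 nearest protein-coding neighbours with at least 10 counts, 3 intervals lay above 0 and 3 below, near the 18.7% and 16.8% of all such features. The median was -0.00, or 0.06 after centring on length, and none passed the rule. Values below are before centring. After it, SCN4A had 0.52, BCR 0.45, GH1 1.90, RGL4 -0.92, CHCHD10 -0.255 and RPS19 0.02. Beside CD79B (0.42), SCN4A had 846 and 480 counts, a log2 ratio of 0.71 (0.55 to 0.88), GH1 had 14 and 4 and PRR29 58 and 54. Unstranded counting could share reads between CD79B and these genes where they overlap. Beside IGLL1, BCR had 1734 and 1031 counts, at 0.64 (0.53 to 0.76), and RGL4, which lies between IGLL1 and VPREB3, had 53 and 95, at -0.95 (-1.46 to -0.45). CHCHD10 beside VPREB3 had 563 and 718 counts, at -0.46 (-0.62 to -0.30), while ZNF70 had 0.05 and C22orf15 had 22 and 22 counts. Beside CD79A, RPS19 had a log2 ratio of -0.18 (-0.25 to -0.11), ARHGEF1 0.10 and ERFL 8 and 14 counts. Beside VPREB1, PPM1F had -0.02, TOP3B 0.35 and ZNF280B 0.20. For IGHM the nearest found, both on the same side, were TEDC1 at -0.21 and TMEM121 at 0.00. Immunoglobulin genes were not counted as protein-coding in this search, so genes such as IGHD (0.22) may lie between.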

How the data were processed

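Total RNA of 2 libraries, 1 per group, was prepared with QIAGEN RNeasy and NEBNext Ultra kits, per the labels' protocols. The deposited values are raw counts of reads per gene, made by the authors with featureCounts on the hg19 build of the genome (GRCh37), per the submitters' processing notes. Its version, the aligner, strandedness and the handling of multi-mapping reads were not given in the sources used here. The series table and the single files held the same 51404 values, and columns were matched to libraries by library number. Symbols came by Entrez number from RefSeq (GRCh38.p14) for 23696 of 25702 features.

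Library sizes were scaled by TMM (edgeR 4.0.16, R 4.3.3, features with at least 10 counts), with factors 0.9954 (PAX5) and 1.0046 (control). Ratio intervals are exact Clopper-Pearson 95% intervals conditional on the total count (scipy 1.17.1), and those of ratios between genes are log-normal. PCR reads are not independent molecules, so all intervals cover counting error only. A count of 0 allows up to 3 counts, or 0.252 CPM (PAX5) and 0.272 CPM (control). No gene was tested, since 1 library per group leaves no residual degrees of freedom. The calculation was tested on simulated Poisson counts. These hold no variation between replicates and no length trend, so they check the arithmetic of the intervals only.

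The genes and lists were chosen with earlier results of these data known. Named genes are PAX5, the 6 receptor genes, list members past the rule and the 3 with the largest interval bound in each direction; SYK, EBF1, HSPA5, IKZF3 and IGLL5 were added for their known roles, and other immunoglobulin genes and neighbours with at least 10 counts are all named. The values of some list members are not reported here, while the list counts include them. IGHMBP2, which matched the immunoglobulin letters but encodes a helicase, was left out of its list. Alternatives were scaling by total counts, DESeq2 1.42.0 size factors or upper quartile, centring on length or on length and GC content (known for 97.7% of features, not for IGHM), assuming a biological coefficient of variation of 0.1 or 0.2, other count minimums and the single files. Centring on features within 10% of a gene's length was chosen after seeing the data.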

Additional observations from a re-analysis of the deposited data

How the results depend on the processing

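Of 92 alternative values, 75 stayed within the counting interval or within 1.5 times the count and 17 moved. An assumed biological coefficient of variation leaves the ratio as it is and widens only its interval. The single files hold the same counts, and length centring cancels between genes of the same length group. Such values could not move, so the 75 overstate how stable the results are. VPREB3 (-0.09) and CD79A (-0.02), whose intervals held 0, changed sign under each centring, to intervals above 0. Scaling put the interval of VPREB3 below 0 with total counts (-0.19 to -0.01) and upper quartile (-0.21 to -0.02), while DESeq2 size factors kept it on 0. Centring on length group, on length and GC content together, and on features of near length gave -0.054, 0.000 and -0.053 for IGLL1, 0.12, 0.13 and 0.17 for VPREB3, 0.18, 0.20 and 0.13 for CD79A, and 0.54, 0.64 and 0.57 for CD79B. VPREB1 gave 1.38, 1.39 and 1.42, each with an interval above 0. IGHM gave 0.82 under both centrings on length, and no value with GC content. The cause was not tested. With an assumed biological coefficient of variation of 0.1, the intervals of IGHM (0.28 to 1.11) and CD79B (0.02 to 0.83) lay above 0 and that of IGLL1 (-0.66 to 0.15) held 0. The change of CD79B relative to CD79A (-0.13 to 1.01) held 0 as well, and that of IGHM relative to IGLL1 (0.37 to 1.53) did not. At 0.2 the intervals of all 6 genes held 0, with IGHM at -0.11 to 1.50. Those of the changes between genes held 0 at 0.2 too, with IGHM relative to IGLL1 at -0.185 to 2.090. Features higher past 2-fold numbered 113 with at least 50 counts instead of 182, and those lower past 2-fold 4, also 4 after centring on length, instead of 7. No paired analysis was possible because each group has 1 library. VPREB1 is limited by its 24 reads.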
